A study of Mus musculus with 6 samples.

Results

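The 34 genes described here mark cells that are not of the oligodendrocyte lineage: 10 endothelial genes, 4 mural cell genes, 4 genes of the basement membrane and pericellular matrix, 10 meningeal fibroblast genes and 6 neural crest and Schwann cell genes. They were chosen by name, not by their values, as a trace of blood vessels, meninges and peripheral nerve in a culture selected for glial precursors. All 34 were found by symbol among 31266 protein-coding and long noncoding genes that could be quantified. The cultures were oligodendrocyte precursor cells (OPCs), the dividing glial cells that later form myelin. They came from spinal cords of C57BL/6 mouse pups at postnatal day 0.5 and were pulled down with magnetic beads for A2B5, a ganglioside epitope on glial precursors. There were 3 libraries from Gde3 KO pups and 3 from wild-type (WT) pups, numbered 1 to 3 in each genotype. Both genotypes were grown for 16 h on poly-lysine and laminin, in medium holding forskolin at 5 µM and the growth factors PDGF and CNTF at 10 ng/mL each. Gdpd2 encodes GDE3, an enzyme at the cell surface that releases proteins from their glycolipid anchor. The labels do not say which exons the KO allele lacks or whether animals were pooled, and nothing says that replicates came from separate animals, so a p-value here reflects library-to-library spread that may be technical.

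Blood vessels of the neonatal spinal cord are tubes of endothelial cells joined by cadherin and claudin contacts, wrapped by mural cells (pericytes and smooth muscle) and by a shared collagen IV basement membrane. Fibroblasts of the meninges, which cover the cord, make the fibrillar collagens I and III and small proteoglycans such as decorin. Neural crest cells give rise to the Schwann cells and sensory neurons of the spinal nerves and ganglia, which lie against the cord when it is dissected. Several of these genes are not exclusive to those cells, since glia also make Sparc and Pmp22.

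Sequence before the start is shown for the highest endothelial, mural and meningeal fibroblast gene by level, Cldn5, Acta2 and Col3a1, because these 3 groups differed between libraries in different ways. Windows of 250 bases before the RefSeq start (GRCm38.p6) were matched for 24 of the 34 genes, as 37 windows of 32851 in all. Capitals mark the motif named. The smooth muscle actin gene Acta2, on the minus strand of chromosome 19, has a pair of CArG boxes, the element bound by serum response factor, starting 84 and 34 bases before the start, at chr19:34255438-34255467 and chr19:34255388-34255417. These positions count from the RefSeq start. GENCODE M21, used for the values here, puts the 5′ end of Acta2 at 34255590, so that both printed stretches lie within its annotated exons. The claudin gene Cldn5 has CCAAT, read on the other strand as ATTGG, at 118 and 88 bases before the start (chr16:18776597-18776846, plus strand). The collagen gene Col3a1 has TATAAA at 117 bases before the start (chr1:45311288-45311537, plus strand).
Acta2, first box: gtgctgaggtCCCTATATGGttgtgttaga
Acta2, second box: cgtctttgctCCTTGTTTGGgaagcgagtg
Cldn5: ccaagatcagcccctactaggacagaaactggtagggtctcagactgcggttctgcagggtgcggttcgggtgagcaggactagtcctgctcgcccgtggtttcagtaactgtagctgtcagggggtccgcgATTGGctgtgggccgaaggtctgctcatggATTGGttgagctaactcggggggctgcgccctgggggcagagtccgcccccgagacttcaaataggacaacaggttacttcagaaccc
Col3a1: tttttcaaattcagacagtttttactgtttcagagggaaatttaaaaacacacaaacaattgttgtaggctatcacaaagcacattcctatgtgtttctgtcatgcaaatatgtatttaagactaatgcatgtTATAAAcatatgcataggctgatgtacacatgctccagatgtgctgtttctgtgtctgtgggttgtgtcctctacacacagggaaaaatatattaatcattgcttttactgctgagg

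Searched on both strands, CCAAT was in 12 of the 37 member windows and in 33.8% of all windows, and TATAAA was in 5 member windows and in 12.4% of all windows. GGGCGG was in 15 member windows and in 32.7% of all. The CArG box, allowing at most 1 base other than A or T in its middle, was in 9 member windows and in 8.59% of all. These are counts of windows with at least 1 match. Besides Acta2, the genes with a CArG box were Col1a2, Egfl7, Egr2, Kdr and Tfap2a. These matches describe letters in a window and not the binding of a factor.

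The values are FPKM, the fragment density that the authors' assembler gave each transcript, averaged over the exonic bases that belong to one gene alone. A value of 0 means that no transcript of 300 nt or more was assembled there. Where the share of a gene's exonic bases that was assembled is given, it counts only those unshared bases. By number, transcripts under 300 nt made up 36.8% of the assembly of WT replicate 1, which was in shorter pieces, and 2.16% to 6.61% of the other 5 assemblies. By summed FPKM they made up 97.95% to 99.96% of every assembly, and the length minimum leaves this FPKM out. Relative depth was 0.883 to 0.988 in KO and 0.76 to 1 in WT libraries. Olig1, a transcription factor that defines the oligodendrocyte lineage, was at 415.4 to 517.7 FPKM in KO and 355.8 to 513.1 FPKM in WT libraries, above the highest of the 34 genes. The tested genes of other cell types were 9 OPC, 6 astrocyte, 6 neuron, 7 microglia, 1 erythroid and 2 ependymal genes, of which 0 passed the limma test described next. Exons 9 and 10 of the 16 exons of Gdpd2 were not assembled in any KO library, while exon 9 was assembled in full in all WT libraries and exon 10 in full in WT replicates 2 and 3 and over 21.9% in WT replicate 1. This exon check took transcripts of any length, whereas the gene level takes only those of 300 nt or more. The level of Gdpd2 over the whole gene overlapped between genotypes, at 0.667, 1.497 and 1.78 FPKM in KO libraries, against 0, 2.79 and 2.85 FPKM in WT libraries.

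No vascular, meningeal or neural crest gene passed the test for a difference between KO and WT cells. Of the 34 genes, 25 averaged at least 1 FPKM across the 6 libraries and entered the test, and 9 lay below it. With limma on log2(FPKM + 1), Benjamini-Hochberg adjusted over 12045 genes at 0.05, 0 of the 25 passed, against 1 of all genes (0.0083%). The smallest adjusted p of a member was 0.9999. None had an unadjusted limma p under 0.05, against 1.62% of all genes, and the smallest was 0.1395, for Mgp. The 25 tested genes were split into 12 higher and 13 lower in KO, against 48.6% of all genes higher in KO. Over all 34, 19 were higher and 15 lower, with a median log2 difference of 0.06 (all genes tested, -0.01). None of the 25 had all KO values above all WT values (2.03% of all genes) or all below (3.03%).

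Same-numbered KO and WT libraries resembled each other, and 2 of the 25 genes had an unadjusted p under 0.05 once the replicate number was included as a block, against 4.23% of all genes. Cdh5, higher in KO, had an unadjusted limma p of 0.0285 in that fit, and Postn, lower in KO, had 0.00746, each with a limma adjusted p of 0.809. With the replicate block, 0 of the 25 genes passed after adjustment, as did 0% of all genes. In bulk RNA, fewer cells of a type and less RNA of that type per cell cannot be told apart, for these and all values that follow.

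**Figure D1:**
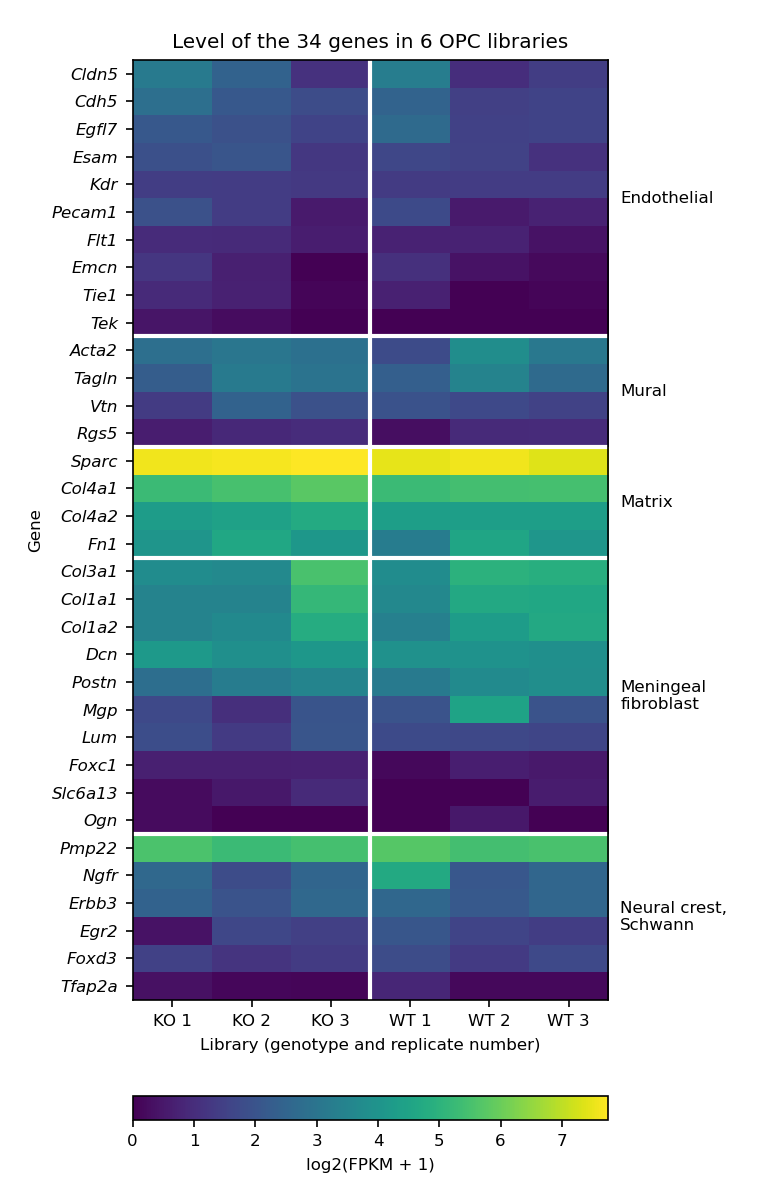
Level of each of the 34 genes (rows, grouped by cell type) in the 3 KO and 3 WT libraries (columns), coloured by log2(FPKM + 1). Sparc, at 165 to 215 FPKM, is the brightest row, the endothelial genes are all under 10 FPKM, and Col3a1 and Col1a1 are brightest in KO replicate 3, WT replicate 2 and WT replicate 3.

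Endothelial genes were low, and 6 of the 10 were higher in both replicate 1 libraries than in the other 4, whatever the genotype. Cldn5, the main claudin of the blood-brain barrier, had 7.97, 4.44 and 1.14 FPKM in KO replicates 1 to 3, against 8.86, 1.04 and 1.66 FPKM in WT replicates 1 to 3. Both replicate 1 libraries were above the other 4, KO replicate 2 came next, and the genotypes overlapped (log2 difference 0.32 ± 0.76, SE; limma adjusted p = 0.9999). Cdh5, which encodes VE-cadherin of the endothelial junction, had 6.19, 3.36 and 2.51 FPKM in KO libraries, against 4.53, 1.76 and 1.94 FPKM in WT libraries. Each KO library exceeded the WT library of the same number, but KO replicates 2 and 3 lay below WT replicate 1 (log2 difference 0.43 ± 0.38, SE; limma adjusted p = 0.9999). That difference was 0.14 without KO replicate 1, 0.66 without KO replicate 3, 0.25 without WT replicate 2 and 0.75 without WT replicate 1. Egfl7, a factor that endothelial cells secrete into their surrounding matrix, had 3.43, 2.77 and 1.96 FPKM in KO libraries and 5.40, 1.85 and 1.94 FPKM in WT libraries. WT replicate 1 was the highest library and KO replicate 1 the next.

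Esam, an adhesion molecule of endothelial tight junctions, had 2.75, 3.10 and 1.40 FPKM in KO libraries and 2.17, 1.87 and 1.16 FPKM in WT libraries. KO replicates 1 and 2 were the highest, and KO replicate 3 was within the WT range. In WT replicate 1 68.9% of Esam's exonic bases were assembled, against 93.9% to 96.3% in the other libraries. Over assembled bases WT replicate 1, at 3.14 FPKM, lay between KO replicate 2 at 3.30 FPKM and KO replicate 1 at 2.86 FPKM. Pecam1, the endothelial adhesion molecule CD31, had 2.77, 1.59 and 0.472 FPKM in KO libraries and 2.34, 0.482 and 0.665 FPKM in WT libraries, again with the replicate 1 libraries highest and KO replicate 2 after them. Kdr, the main signalling receptor for VEGF-A, had nearly level base averages. It had 1.65, 1.59 and 1.42 FPKM in KO libraries, against 1.52, 1.58 and 1.61 FPKM in WT libraries, so that its highest value was 1.17 times its lowest, where the same ratio was 8.53 for Cldn5 and 3.52 for Cdh5. Only 63.1% of Kdr's exonic bases were assembled in WT replicate 1, against 93.7% to 99.8% in the other libraries. Over assembled bases WT replicate 1 was the highest for Kdr, at 2.41 FPKM, while KO libraries were at 1.42 to 1.695 FPKM and the other WT libraries at 1.61 and 1.62 FPKM. The ratio of the base averages of Cldn5 and Kdr within a library ran between 0.804 and 4.82 in KO and between 0.656 and 5.82 in WT libraries.

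The other 4 endothelial genes lay under a mean of 1 FPKM and were not tested. Flt1, the decoy-like receptor for VEGF, was at 0.548 to 0.921 FPKM in KO and 0.305 to 0.690 FPKM in WT libraries. Only 18.95% of its exonic bases were assembled in WT replicate 1, against 53.9% to 73.6% in the other libraries. Over assembled bases WT replicate 1 was the highest for Flt1, at 3.64 FPKM, and the log2 difference was -0.17. Emcn, the endothelial sialomucin endomucin, had 1.33, 0.592 and 0 FPKM in KO libraries and 1.10, 0.311 and 0.153 FPKM in WT libraries. Tie1, an orphan receptor of the angiopoietin system, had 0.910, 0.629 and 0.0735 FPKM in KO libraries and 0.649, 0 and 0.0663 FPKM in WT libraries. Both genes were highest in the replicate 1 libraries and KO replicate 2. Over assembled bases WT replicate 1 was the highest for both, at 4.42 FPKM for Emcn and 2.59 FPKM for Tie1. Tek, the angiopoietin receptor TIE2, was assembled in KO replicates 1 and 2 only, at 0.355 and 0.191 FPKM, and was listed at 0 in KO replicate 3 and in all WT libraries. In WT replicate 1 there were 3 Tek fragments under 300 nt, which the length minimum leaves out, so the absence there is not distinct from the short pieces of that assembly.

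As a group, 8 of the 10 endothelial genes had a higher mean log2 level in KO, with a median log2 difference of 0.25, and 4 of the 6 tested ones did, beside 48.6% of all genes. The median was 0.04 without KO replicate 1, 0.11 without WT replicate 2, 0.10 without WT replicate 3, 0.46 without KO replicate 3 and 0.38 without WT replicate 1. It was 0.04 with no minimum transcript length and 0.11 over assembled bases alone, where 6 of the 10 genes were higher in KO. Both replicate 1 libraries were above the other 4 for 4 of the 6 tested genes, against 18.7% of all genes. Within pairs, 4, 6 and 3 of the 6 were higher in KO in pairs 1, 2 and 3, where 42.5%, 49.5% and 53.7% of all genes were. The highest library was KO replicate 1 for 3 of the 6, KO replicate 2 for 1 and WT replicate 1 for 2, beside 11.9%, 17.5% and 27% of all genes. The summed level of the 10 genes was 28.3, 19.1 and 9.52 FPKM in KO libraries and 27.3, 9.56 and 9.50 FPKM in WT libraries. Hbb-bs, the beta globin of red blood cells, took the same order of libraries apart from the highest 2, with 102, 50.5 and 28.3 FPKM in KO libraries and 165, 37.6 and 21.5 FPKM in WT libraries. The endothelial sums of KO replicate 3, WT replicate 2 and WT replicate 3 were nearly level, so their order carries little. Of the 6 erythroid genes listed, 4 were at 0 in every library. Alas2, another of them, had 0% of its exonic bases assembled in WT replicate 1, where Hbb-bs was highest. Whether blood left in the vessels has a part in the endothelial values was not tested.

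**Figure D2:**
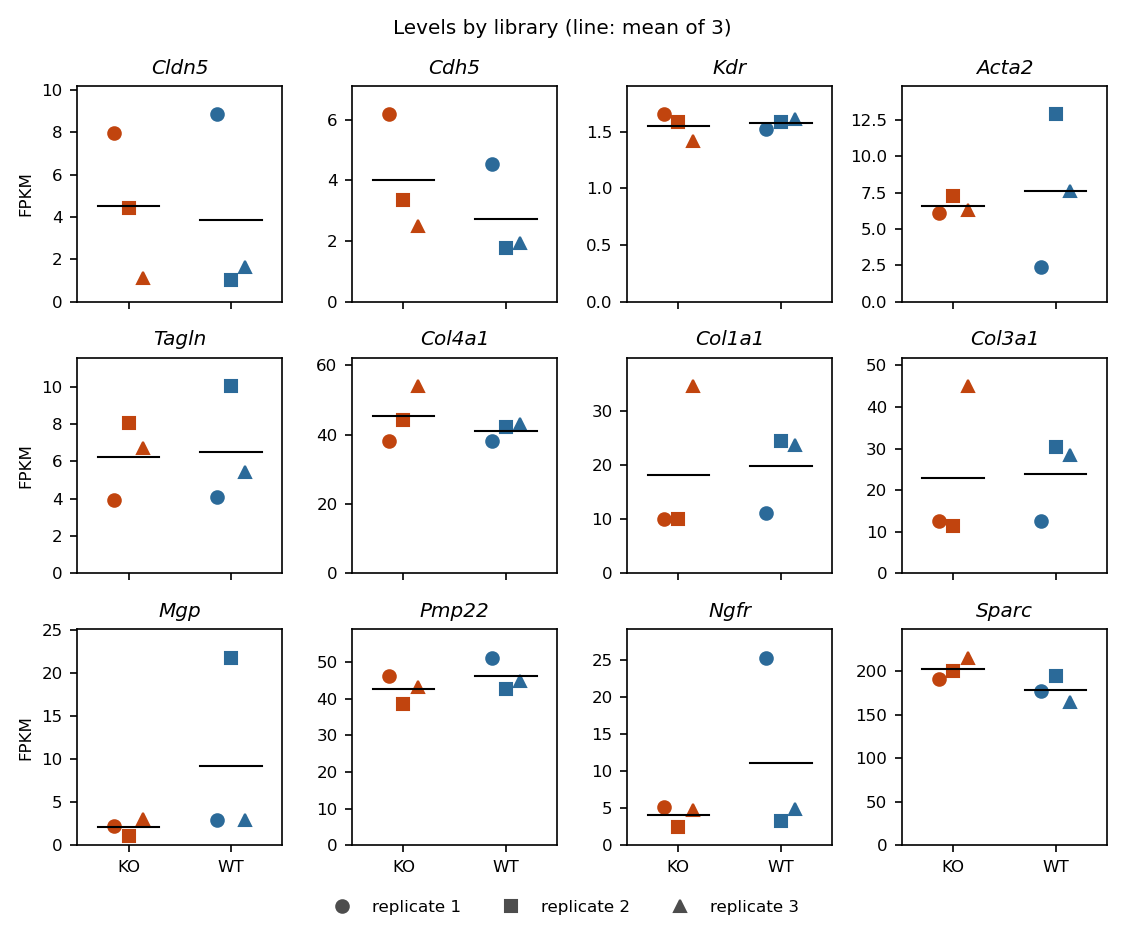
FPKM of 12 of the 34 genes in the 3 KO (left) and 3 WT (right) libraries, each panel with its own axis from 0, symbols giving the replicate number and lines the mean of 3. Cldn5 and Cdh5 are highest in the replicate 1 libraries of both genotypes, Kdr stays between 1.42 and 1.65 FPKM, and Mgp and Ngfr each have 1 high WT library, at 21.8 and 25.4 FPKM.

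Among 27 other endothelial genes listed by function (junctions, transporters, receptors and transcription factors), 9 reached a mean of 1 FPKM and 0 passed the limma test in either direction. Over the whole list 21 were higher and 4 lower in KO, with a median log2 difference of 0.12. Of the 27, 16 were listed at 0 in at least 1 library and 2 in all libraries, so these counts include many values at the floor. Of the 9 tested, 7 were higher in KO, beside 48.6% of all genes tested. The 3 with the highest level are also made by cells outside vessels. Slc2a1, the glucose transporter of the blood-brain barrier and of glia, averaged 26.4 ± 5.68 FPKM in KO and 24.2 ± 4.13 FPKM in WT cells (SD, n = 3 each). Vegfa, the growth factor read by Kdr, averaged 15.1 ± 6.01 FPKM in KO and 11.6 ± 0.985 FPKM in WT cells, and Podxl, an anti-adhesive sialomucin, 9.23 ± 1.04 FPKM in KO and 8.48 ± 1.34 FPKM in WT cells. Their limma adjusted p was 0.9999 each.

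Of the 4 mural genes, 3 were lower in both replicate 1 libraries than in the other 4, and Vtn was the exception. These base averages depend on how much of a gene was assembled, and over assembled bases alone the order held for Tagln but not for Acta2 or Rgs5. Acta2, the smooth muscle actin whose CArG boxes are printed above, had 6.11, 7.27 and 6.31 FPKM in KO libraries, against 2.42, 12.9 and 7.59 FPKM in WT libraries. The KO values lay within the WT range, which held both the lowest and the highest library (log2 difference 0.03 ± 0.49, SE; limma adjusted p = 0.9999). Without WT replicate 1 the log2 difference of Acta2 was -0.53. Tagln, the actin-binding protein transgelin of smooth muscle, had 3.93, 8.05 and 6.72 FPKM in KO libraries and 4.09, 10.1 and 5.45 FPKM in WT libraries. It was lowest in both replicate 1 libraries and, by this base average, highest in WT replicate 2, as Acta2 was (log2 difference -0.03 ± 0.36, SE; limma adjusted p = 0.9999).

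Tagln has 624 exonic bases that no other gene shares, and only these enter its value. Its longest assembled transcript, at 1004 to 1505 nt depending on the library, extended beyond them. Of those 624 bases, 30.5% to 40.7% were assembled in KO libraries, against 87.3%, 45.2% and 20.4% in WT replicates 1 to 3. The base average of Tagln therefore mixes extent and level, and over assembled bases alone its log2 difference was 0.26. Vtn, which encodes vitronectin, made by pericytes in the central nervous system, had 1.55, 4.44 and 2.78 FPKM in KO libraries and 2.88, 2.29 and 1.92 FPKM in WT libraries. KO replicate 2 was the highest and KO replicate 1 the lowest, so the WT values lay inside the KO range. Rgs5, a regulator of G-protein signalling and a pericyte marker, lay under the minimum, at 0.537, 0.862 and 0.991 FPKM in KO and 0.231, 0.894 and 0.924 FPKM in WT libraries. In WT replicate 1 only 9.57% of its exonic bases were assembled and in KO replicate 1 41.1%, and over assembled bases WT replicate 1 was the highest library, at 2.42 FPKM.

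Of the 3 tested mural genes, 2 had both replicate 1 libraries below the other 4, as 21.3% of all genes had. The highest library by base average was WT replicate 2 for Acta2 and Tagln, a place taken by that library for 8.84% of all genes. Over assembled bases Tagln was highest in WT replicate 3, at 26.8 FPKM, against 22.3 FPKM in WT replicate 2. The median log2 difference of the 4 genes was 0.07, with 3 of the 4 higher in KO and 1 of the 4 without WT replicate 1. That median was -0.18 without WT replicate 1 and -0.07 without KO replicate 2, while it was 0.04 without KO replicate 3, 0.23 without KO replicate 1 and 0.25 without WT replicate 2. Among 15 other mural genes, 6 were tested and 0 passed, with 10 higher and 4 lower in KO. Of these 15, 7 were listed at 0 in at least 1 library. Myl9, a smooth muscle myosin light chain, had 2.64, 5.80 and 6.86 FPKM in KO libraries and 1.96, 8.50 and 4.65 FPKM in WT libraries, again lowest in both replicate 1 libraries. Pdgfrb, the pericyte receptor for PDGF-BB, averaged 4.45 ± 1.79 FPKM in KO and 4.62 ± 0.840 FPKM in WT cells, and Anpep, the peptidase CD13, 4.78 ± 1.58 FPKM in KO and 4.13 ± 0.394 FPKM in WT cells (SD, n = 3 each).

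Sparc was the highest of the 34 genes, and Sparc, Col4a1 and Col4a2 varied by at most 1.42 times over the 6 libraries. Sparc, a secreted collagen-binding glycoprotein, had 191, 200.1 and 215 FPKM in KO libraries and 177, 194 and 165 FPKM in WT libraries. WT replicate 2 exceeded KO replicate 1, so the genotypes overlapped (log2 difference 0.18 ± 0.13, SE; limma adjusted p = 0.9999). Col4a1, the alpha 1 chain of collagen IV, had 38.1, 44.2 and 54.1 FPKM in KO libraries and 38.3, 42.1 and 43.1 FPKM in WT libraries, with KO replicate 3 above the rest (log2 difference 0.13 ± 0.15, SE; limma adjusted p = 0.9999). Without KO replicate 3 that difference was -0.0029.

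Col4a2, the alpha 2 chain that joins the alpha 1 chain in the same triple helix, had 18.4, 20.8 and 25.9 FPKM in KO libraries and 19.2, 19.4 and 19.2 FPKM in WT libraries, with the same library on top. The ratio of Col4a1 to Col4a2 was 2.08, 2.12 and 2.09 in KO libraries and 1.99, 2.17 and 2.24 in WT libraries, a spread of 1.13 times from the lowest to the highest. The annotated starts of the pair lie 21 bases apart on opposite strands of chromosome 8, at 11312826 for Col4a1 (minus strand) and 11312805 for Col4a2 (plus strand, mm10). Fn1, which encodes fibronectin, had 15.4, 23.5 and 16.2 FPKM in KO libraries and 8.58, 22.7 and 15.7 FPKM in WT libraries. Both replicate 2 libraries were the highest and WT replicate 1 the lowest.

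All 4 matrix genes had a higher mean log2 level in KO, with a median difference of 0.16, but none passed the test. That median was 0.08 without KO replicate 3 and 0.25 without KO replicate 1. KO replicate 3 was the highest library for 3 of the 4, as it was for 15.9% of all genes. Of 18 other basement membrane and matrix genes, 17 were tested, 0 passed after adjustment, and 13 of the 18 were higher in KO. Serpinh1, the collagen chaperone HSP47 of the endoplasmic reticulum, was the 1 gene of that list with every KO value above every WT value, at 73.1, 64.3 and 63.8 FPKM in KO libraries, against 57.3, 56.5 and 50.6 FPKM in WT libraries. Its log2 difference was 0.29 ± 0.11 (SE), with a limma unadjusted p of 0.0442 and an adjusted p of 0.9999. Of all genes tested, 2.03% had every KO value above every WT value and 1.62% an unadjusted p under 0.05. The glial matrix protein gene Sparcl1 averaged 150.1 ± 47.4 FPKM in KO and 129.5 ± 65.4 FPKM in WT cells, and the integrin beta 1 gene Itgb1 78.9 ± 17.7 FPKM in KO and 95.3 ± 6.40 FPKM in WT cells (SD, n = 3 each). In KO replicate 1, 69.9% of Itgb1's exonic bases were assembled, against 97.1% to 99.95% in the other libraries. Its log2 difference was -0.29 by base average and -0.14 over assembled bases.

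**Figure D3:**
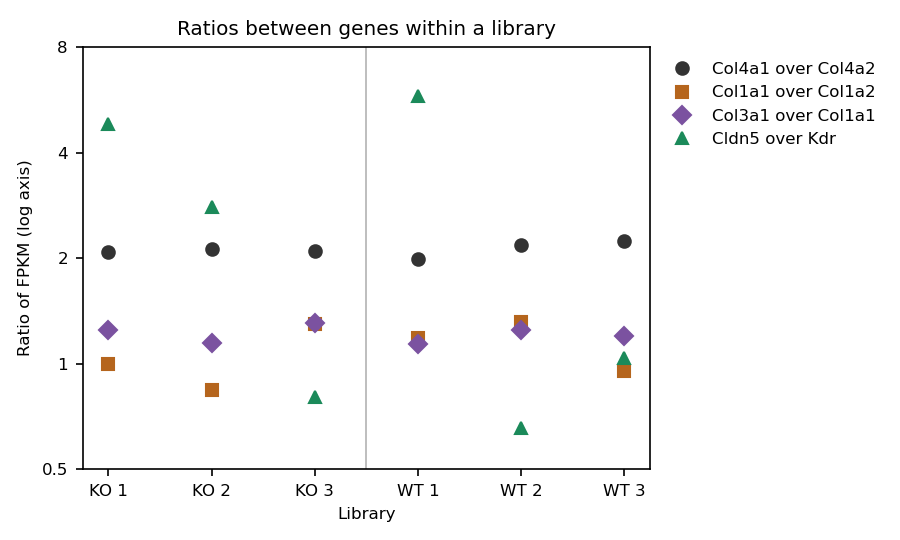
Ratio of FPKM between 2 genes of the same library (log axis) in the 3 KO (left) and 3 WT (right) libraries. Col4a1 over Col4a2 stays between 1.99 and 2.24 and Col3a1 over Col1a1 between 1.14 and 1.30, whereas Cldn5 over Kdr runs between 0.656 and 5.82.

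The fibrillar collagens of meningeal fibroblasts varied more between libraries than between genotypes. Col3a1, which encodes collagen III, had 12.5, 11.4 and 45.1 FPKM in KO libraries, against 12.7, 30.4 and 28.4 FPKM in WT libraries. It was thus high in KO replicate 3, WT replicate 2 and WT replicate 3, and low in the other 3 libraries (log2 difference -0.24 ± 0.59, SE; limma adjusted p = 0.9999). Col1a1, the alpha 1 chain of collagen I, had 10.0, 9.98 and 34.6 FPKM in KO libraries and 11.2, 24.4 and 23.7 FPKM in WT libraries. The same 3 libraries were high, and the genotypes overlapped throughout (log2 difference -0.28 ± 0.54, SE; limma adjusted p = 0.9999). Col1a2, the alpha 2 chain of collagen I, had 10.0, 11.9 and 26.7 FPKM in KO libraries and 9.49, 18.6 and 24.9 FPKM in WT libraries.

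Collagen I is built from 2 alpha 1 chains and 1 alpha 2 chain. The ratio of Col1a1 to Col1a2 transcripts was 0.999, 0.842 and 1.30 in KO libraries and 1.18, 1.31 and 0.953 in WT libraries, below 2 in each. The ratio of Col3a1 to Col1a1 was 1.25, 1.147 and 1.30 in KO and 1.14, 1.25 and 1.20 in WT libraries, so that these genes on different chromosomes kept close to the same proportion while their levels ranged 3.94-fold and 3.47-fold between libraries.

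The small proteoglycan gene Dcn did not share that pattern. It had 17.2, 13.5 and 16.3 FPKM in KO libraries and 14.1, 14.4 and 13.7 FPKM in WT libraries, a range of 1.27 times. Lum, which encodes the related proteoglycan lumican, had 2.56, 1.48 and 3.12 FPKM in KO and 2.32, 2.22 and 2.08 FPKM in WT libraries, so that the WT values lay inside the KO range. Postn, which encodes the matrix protein periostin, had 5.93, 8.50 and 10.4 FPKM in KO libraries and 7.96, 12.1 and 13.2 FPKM in WT libraries. Each KO library was below the WT library of its number, the pattern behind its small unadjusted p with the replicate block, while KO replicates 2 and 3 lay above WT replicate 1.

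Mgp, which encodes the calcification inhibitor matrix Gla protein, had 2.26, 1.08 and 3.07 FPKM in KO libraries and 2.96, 21.8 and 2.98 FPKM in WT libraries. The high value came from WT replicate 2 alone, whose assembled Mgp transcript the authors' assembler listed at 26.1 FPKM with its own interval of 23.6 to 28.7. The same library was the highest for the mural gene Acta2. Foxc1, a transcription factor of meningeal development, was the 1 gene of the 34 with every KO value above every WT value, at 0.5999, 0.617 and 0.648 FPKM in KO libraries, against 0.131, 0.586 and 0.445 FPKM in WT libraries. It lay under the minimum for the fit, and the exact two-sided permutation test gave p = 0.1, the smallest that 3 against 3 libraries allow. Of all tested genes 2.03% had every KO value above every WT value. In WT replicate 1 only 6.04% of its exonic bases were assembled, and over assembled bases that library was the highest, at 2.18 FPKM, with a log2 difference of -0.03. Slc6a13, a GABA and taurine transporter of the meninges, had 0.180, 0.414 and 0.917 FPKM in KO libraries and 0, 0 and 0.513 FPKM in WT libraries. Ogn, which encodes the proteoglycan osteoglycin, was assembled in KO replicate 1 and WT replicate 2 only, at 0.161 and 0.401 FPKM.

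Of the 10 meningeal fibroblast genes, 4 were higher in KO and 6 lower, with a median log2 difference of -0.12, and 2 of the 7 tested genes were higher. The sign of that median rested on single libraries, since it was 0.02 without KO replicate 1, 0.05 without KO replicate 2 and 0.02 without WT replicate 2, and it was -0.33 without KO replicate 3 and -0.34 without WT replicate 1. It was -0.02 without WT replicate 3. Of those 7, KO replicate 3 was the highest library for 4, WT replicate 2 for 1 and WT replicate 3 for 1 (Postn), beside 18.9% of all genes for the last of these libraries. The numbers higher in KO within pairs 1, 2 and 3 were 3, 0 and 6 of 7. The summed level of the 10 genes was 61.5, 58.9 and 141 FPKM in KO libraries and 60.8, 125 and 110 FPKM in WT libraries. Other cell types also differed between these libraries. The summed level of 6 astrocyte genes was 209, 418 and 693 FPKM in KO libraries and 149, 511 and 539 FPKM in WT libraries, with both replicate 1 libraries below the rest for 5 of the 6. Foxj1, a transcription factor of ciliated ependymal cells, had 7.94, 23.7 and 10.5 FPKM in KO libraries and 6.77, 19.5 and 10.6 FPKM in WT libraries. The other 4 genes of the ependymal list were under 2 FPKM in every library, with Tmem212 and Rarres2 listed at 0 in every library. That of 8 microglia genes was 97.4, 104 and 178 FPKM in KO libraries and 77.5, 53.0 and 67.1 FPKM in WT libraries, with KO replicate 3 the highest for all 8. All 8 microglia genes were higher in KO by mean log2 level. Of the 7 that were tested, 5 had an unadjusted limma p below 0.05, beside 1.62% of all genes, and 0 passed after adjustment. Their part in the collagen values was not tested.

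Among 26 other meningeal fibroblast genes, 18 were tested and 0 passed, with 15 higher and 8 lower in KO and a median log2 difference of 0.01. Fstl1, a secreted glycoprotein of fibroblasts and astrocytes, averaged 30.4 ± 6.61 FPKM in KO and 29.9 ± 6.48 FPKM in WT cells (SD, n = 3 each). Ptgds, the prostaglandin D synthase of the leptomeninges, averaged 13.3 ± 2.48 FPKM in KO and 13.1 ± 0.812 FPKM in WT cells. Igfbp4, a binding protein for insulin-like growth factors, averaged 14.7 ± 5.45 FPKM in KO and 8.06 ± 4.65 FPKM in WT cells, with a limma adjusted p of 0.9999. Its exonic bases were assembled over 53.3% to 53.4% in KO libraries and WT replicate 2, but over 24.9% and 23.0% in WT replicates 1 and 3. Over assembled bases alone its log2 difference was 0.25.

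**Figure D4:**
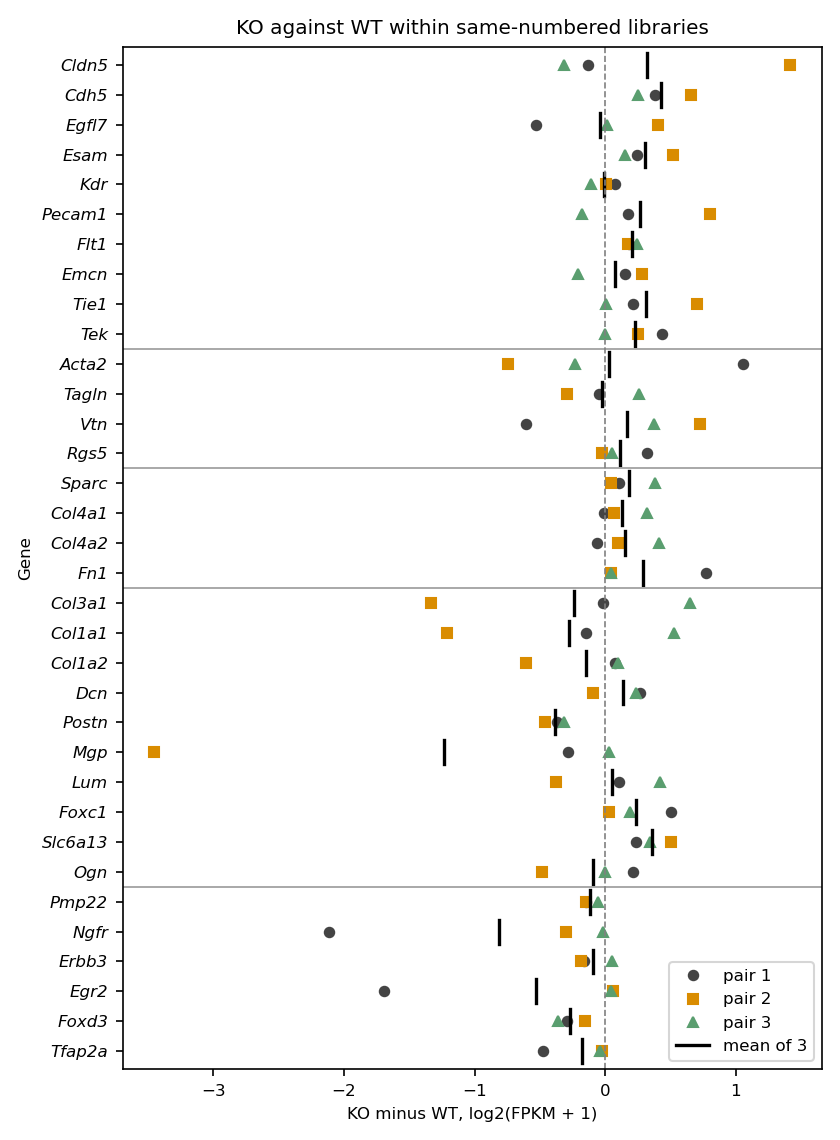
Difference between the KO and WT library of the same number, in log2(FPKM + 1), for each of the 34 genes (rows), with symbols for pairs 1 to 3 and a bar for their mean; positive values are higher in KO. The largest differences belong to Mgp in pair 2 and to Ngfr and Egr2 in pair 1, all lower in KO.

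None of the 6 neural crest and Schwann cell genes had a higher mean log2 level in KO, and 5 of the 6 were highest in WT replicate 1. Pmp22, which encodes a myelin protein of Schwann cells, had 46.1, 38.5 and 43.1 FPKM in KO libraries, against 51.2, 42.7 and 44.9 FPKM in WT libraries. The genotypes overlapped, with KO replicate 1 above WT replicates 2 and 3 (log2 difference -0.12 ± 0.12, SE; limma adjusted p = 0.9999). Ngfr, the low-affinity neurotrophin receptor p75 of neural crest, Schwann cells and sensory neurons, had 5.11, 2.48 and 4.76 FPKM in KO libraries and 25.4, 3.28 and 4.84 FPKM in WT libraries. Only WT replicate 1 stood apart, where the authors' assembler listed the transcript at 25.6 FPKM with its own interval of 24.7 to 26.5. The log2 difference of Ngfr was -0.81 ± 0.70 (SE; limma adjusted p = 0.9999), and without WT replicate 1 it was -0.01.

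Erbb3, the neuregulin receptor of Schwann cells, had 4.43, 2.95 and 5.10 FPKM in KO and 5.08, 3.48 and 4.88 FPKM in WT libraries, lowest in both replicate 2 libraries. Egr2, the transcription factor KROX20 that starts myelination in Schwann cells, had 0.294, 2.14 and 1.75 FPKM in KO libraries and 3.19, 2.02 and 1.67 FPKM in WT libraries. KO replicate 1 was low, and there 16.4% of its exonic bases were assembled, against 83.8% and 88.0% in the other KO libraries and 83.1% to 92.3% in WT libraries. Foxd3, a transcription factor of early neural crest, had 1.86, 1.25 and 1.55 FPKM in KO libraries and 2.504, 1.51 and 2.29 FPKM in WT libraries, each KO library below its WT counterpart. Tfap2a, another early neural crest factor, was under the minimum at 0.271, 0.100 and 0.0858 FPKM in KO libraries and 0.773, 0.117 and 0.118 FPKM in WT libraries.

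The median log2 difference of the 6 genes was -0.23, but -0.03 without WT replicate 1, -0.08 without replicate pair 1 and -0.36 without WT replicate 2. Of the 5 tested ones, 4 were highest in WT replicate 1, beside 27% of all genes, and without that library 1 of the 6 was higher in KO. The same library was high for 5 sensory neuron genes, a list written after values had been seen. Prph, an intermediate filament of peripheral neurons, had 13.4, 10.4 and 9.68 FPKM in KO libraries and 84.2, 10.7 and 11.2 FPKM in WT libraries. The summed level of these 5 genes was 20.5, 13.1 and 13.1 FPKM in KO libraries and 123, 13.0 and 13.8 FPKM in WT libraries, and all 5 were highest in WT replicate 1. A list of 6 neuron genes summed to 125, 121 and 103 FPKM in KO libraries and 219, 122 and 113 FPKM in WT libraries. The part of such RNA in the neural crest values was not tested.

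Among 20 other neural crest and Schwann genes, 13 were tested and 0 passed, with 12 higher and 6 lower in KO. The 3 highest were genes that oligodendrocyte precursors or astrocytes also use. Sox10, a transcription factor of Schwann cells and of the oligodendrocyte lineage, averaged 199 ± 16.2 FPKM in KO and 164 ± 70.8 FPKM in WT cells, where WT replicate 3 was at 82.3 FPKM. Only 55% of Sox10's exonic bases were assembled in WT replicate 3, against 87.95% to 98.35% in the other libraries. Over assembled bases that library was at 149.7 FPKM and the others at 192.8 to 239.4 FPKM. Ednrb, an endothelin receptor of neural crest and glia, averaged 55.0 ± 6.47 FPKM in KO and 53.0 ± 5.37 FPKM in WT cells. Sox9, a factor of crest and glial progenitors, averaged 34.8 ± 8.73 FPKM in KO and 34.4 ± 7.66 FPKM in WT cells (SD, n = 3 each).

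Across the 25 tested genes, the share ordered by replicate number was near that of all genes. Both replicate 1 libraries lay above the other 4 for 6 of the 25 and below for 6 of the 25, 24% each, where 18.7% and 21.3% of all genes did. The 6 above were 4 endothelial and 2 neural crest genes, and the 6 below were 2 mural, 2 matrix and 2 meningeal fibroblast genes. The labels do not say what the replicate numbers share.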

How the data were processed

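RNA-seq of A2B5-selected spinal cord OPCs comprised 3 Gde3 KO and 3 WT libraries, grouped by their titles. The submitters' processing notes name FastQC, TopHat2 2.1.1 as well as Cufflinks 2.2.1 with Cuffdiff 2.2.1, and the build mm10. Each deposited file is the authors' transcript assembly of 1 library, with an FPKM, an interval for it and a coverage per transcript; other attributes were not used. Read counts and strandedness are not given in the sources used here, so no count model was run and depth is relative (coverage per FPKM).

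Transcripts carry no gene names and were matched by position to GENCODE M21 (same build). FPKM of transcripts of 300 nt or more, on the gene's strand or unstranded, was summed at each exonic base belonging to that gene alone and averaged, where a gene had at least 200 such bases. A base average falls where part of a gene is not assembled. Of 31266 genes, the 12045 averaging at least 1 FPKM were tested on log2(FPKM + 1) in R 4.3.3 using limma 3.58.1 (moderated two-sided test with a mean-variance trend, genotype as sole term, Benjamini-Hochberg at 0.05). Fold changes on this scale understate those of low genes. The code was tested on simulated data.

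The members, gene lists, gene value and tests were chosen with earlier results of these data known. All members are given; log2 differences are printed for the 2 highest per cell type. Of the lists of other vascular, matrix, meningeal and crest genes, the 3 highest genes are named, with Serpinh1 for its unadjusted p; other cell types are given as sums or by their highest gene. Prph was named after its values were seen. Deviations from the genotype means correlated across genes between same-numbered KO and WT libraries (r = 0.369, 0.197 and 0.293 for numbers 1, 2 and 3; -0.277 to 0.0234 between libraries of unlike number, over genes that are not independent). The numbers, from the titles, were therefore taken to pair the samples in the replicate block and in the differences within pairs. The main fit, which gave the SE and p values printed without mention of the block, did not use this pairing. Alternatives covered pseudocounts, filters, scaling, the replicate block, array weights, other gene values and left-out libraries. Promoter windows are from RefSeq.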

Additional observations from a re-analysis of the deposited data

How the results depend on the processing

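No member passed the limma test under any of the 18 alternatives run. Over all genes, 1 gene was called in the fit reported, 0 with a pseudocount of 0.1 or 5, with a filter at a mean of 5 FPKM, with the replicate block or with the sum of FPKM over all transcripts, 2 over assembled bases only, 27 without replicate pair 1, and 1 to 17 when each library was left out in turn (17 without KO replicate 1). With the replicate block no member's call changed; in this balanced design the block cannot move a fitted difference, so the medians stay at 0.25, 0.07, 0.16, -0.12 and -0.23 for endothelial, mural, matrix, meningeal and crest genes by construction. Summed FPKM, which counts a gene in pieces several times, gave -0.74 for endothelial, -0.47 for mural, -0.089 for matrix and -0.69 for crest genes, and -0.46 over all members. The median over all members, 0.06, was -0.022 over assembled bases, -0.072 with the filter at 5 FPKM and -0.091 with no minimum length. Over assembled bases 16 of the 34 genes were higher in KO. Summed FPKM turned Cdh5 to -0.53, Col4a1 to -0.37 and Acta2 to -0.56. Acta2 was also -0.038 with a pseudocount of 5, -0.091 with no minimum length, -0.47 with array weights and -0.49 without pair 1, and Tagln was 0.26 over assembled bases. The cause was not tested. With each library left out in turn, Cldn5 ran between -0.14 and 1.02 (negative without KO replicate 1 or WT replicate 2), Acta2 between -0.53 and 0.48 (negative without KO replicate 2 or WT replicate 1), and Tagln between -0.27 and 0.29 (positive without KO replicate 1 or WT replicate 2). Col4a1 ran between -0.0029 (without KO replicate 3) and 0.24, Col3a1 between -0.85 and 0.10 and Col1a1 between -0.84 and 0.0087 (both positive without KO replicate 1 or 2). Without WT replicate 1, 18 of the 34 genes were higher in KO (9 endothelial, 1 mural, 3 matrix, 4 meningeal and 1 crest), and without pair 1, 20 (9, 2, 4, 4 and 1 in the same order), settings chosen after seeing the data. The number of libraries and the missing read counts limit what differences could be seen.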
